A study of Homo sapiens with 12 samples.

Results

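The genes described here are 10 genes of the human myeloid lineage, taken from the count table by symbol. They are the transcription factor genes SPI1, CEBPA, CEBPB, CEBPD, CEBPG and GFI1, the cytokine receptor genes CSF3R and CSF1R, and the granule genes LYZ and MPO. Each symbol matched a single gene, so these are 10 of the 58735 genes listed. RNA was sequenced from K562, a human erythroleukemia line that carries the BCR-ABL1 kinase, which nilotinib inhibits, and that turns toward hemoglobin production when given hemin. The 12 libraries fall into 4 groups with 3 biological replicates each. Mock DMSO cells had 24 h in 0.1% DMSO and no hemin, mock nilotinib cells 24 h with 0.1 μM nilotinib and no hemin, hemin DMSO cells the same solvent and then 50 μM hemin for 24 h, and hemin nilotinib cells 0.1 μM nilotinib before that hemin treatment. Nilotinib is reported to have been present during hemin as well. If the mock cells were collected before hemin, as read here, the hemin nilotinib cells had the longer exposure. In the interaction, hemin and length of exposure then cannot be told apart. The exposure time of the mock nilotinib cells is not certain and may have been as long. The column names mark mock libraries with time 0 and hemin libraries with 24, so hemin and elapsed time cannot be told apart between mock and hemin groups. All libraries come from a single established line, which limits the groups as a model of normal blood cells.

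Blood progenitors choose between red cell and myeloid fates under transcription factors that oppose each other. PU.1, the product of SPI1, drives monocyte and granulocyte genes and is held in check by the erythroid factor GATA1, which it inhibits in turn. C/EBP proteins bind DNA as dimers of basic leucine zipper subunits and act beside PU.1 at the genes of receptors such as CSF3R and CSF1R and of granule proteins such as lysozyme and myeloperoxidase.

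Total counts ranged from 40418880 to 50506990 per library in mock DMSO, from 33457078 to 36893606 in mock nilotinib, from 36153691 to 41860655 in hemin DMSO and from 35333809 to 40874699 in hemin nilotinib. Levels are given as CPM, the count relative to the library total after scaling by edgeR's TMM factor. Where a gene had 0 counts its level could lie anywhere below 3 counts, equal to 0.0539 CPM in the deepest library and 0.0957 CPM in the shallowest by scaled total, counting error alone. Hemin nilotinib replicate 1 stood apart from its group, with the lowest correlation of log2 CPM between replicates across genes (0.969 with replicate 3), and some of the shifts without it are given beside the values. Mitochondrial transcripts took 1.45% to 2.88% of counts in the hemin DMSO libraries and 5.20% to 8.83% in the others, so this share moved with every comparison that uses hemin DMSO, and its part in the results was not tested.

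The erythroid markers of K562 were present in all libraries, with GATA1 between 130.1 and 399 CPM and TAL1 between 68.7 and 915 CPM, and HBG1, HBG2, HBZ and TFRC had counts in each of the 12 libraries. These markers were higher with nilotinib under hemin. The log2 fold changes were 1.005 for GATA1, 3.06 for TAL1, 2.40 for HBG1, 1.49 for HBG2, 4.94 for HBZ and 1.83 for TFRC. Without hemin each of them but GATA1 was higher. The TFRC call under hemin was lost without hemin nilotinib replicate 1, at 0.43, and in fits of the deposited FPKM (1.24 and 1.25). HBZ, HBG1 and HBG2 share sequence with other genes, so their own counts are uncertain. Monocyte and macrophage markers summed to between 1.49 and 20.2 CPM over 13 genes, led by ITGAM in mock DMSO and by CD14 in hemin DMSO, with FCN1 at 0 in all libraries. Their sum was lower in each nilotinib library than in each DMSO library, and the part of such cells in the results was not tested. In bulk RNA, fewer cells of a type and less RNA per cell cannot be told apart.

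The deposited FPKM, which divide counts by gene length, allow levels to be compared between genes. In mock DMSO the mean FPKM was 82.5 ± 11.1 for CEBPB, 35.8 ± 1.78 for SPI1, 31.8 ± 4.81 for CEBPG and 17.4 ± 3.37 for LYZ (SD, n = 3 each). Further down were CEBPD at 3.84 ± 0.630, CSF3R at 1.84 ± 0.210, GFI1 at 1.27 ± 0.279, CEBPA at 0.277 ± 0.102, CSF1R at 0.0391 ± 0.0145 and MPO at 0.0142 ± 0.00959 FPKM (SD, n = 3 each). Neighbors in this order had separate ranges over the 3 libraries except SPI1 and CEBPG, whose FPKM overlapped. Hemin DMSO kept CEBPB highest, at 139.7 ± 33.3 mean FPKM, before CEBPG at 35.2 ± 3.12, SPI1 at 29.1 ± 2.55, LYZ at 14.2 ± 4.3 and CEBPD at 3.06 ± 0.0855, while CSF1R at 0.332 ± 0.157 overlapped CEBPA at 0.255 ± 0.0871 (SD, n = 3 each). In mock nilotinib the order by mean FPKM was CEBPB at 25.1 ± 4.28, CEBPG at 10.2 ± 2.0 and SPI1 at 7.31 ± 0.778, then LYZ at 1.9 ± 0.463 and CEBPD at 1.83 ± 0.458, which overlapped (SD, n = 3 each). SPI1 thus overlapped CEBPG in mock DMSO but lay below it, with ranges apart, in the other groups. In hemin nilotinib, CEBPB was again the highest by mean FPKM, at 49.4 ± 28.4, followed by CEBPG at 11.8 ± 5.93 and SPI1 at 4.23 ± 0.533 (SD, n = 3 each). There the FPKM ranges of CEBPD and LYZ overlapped, as did those of CEBPA and CSF3R and of CSF3R and CSF1R, so these neighbors had no order beyond their spread. CEBPA, CSF1R and MPO were near 0 in every group by FPKM, with the highest library at 0.428 FPKM, that of CSF1R in hemin DMSO.

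**Figure D1:**
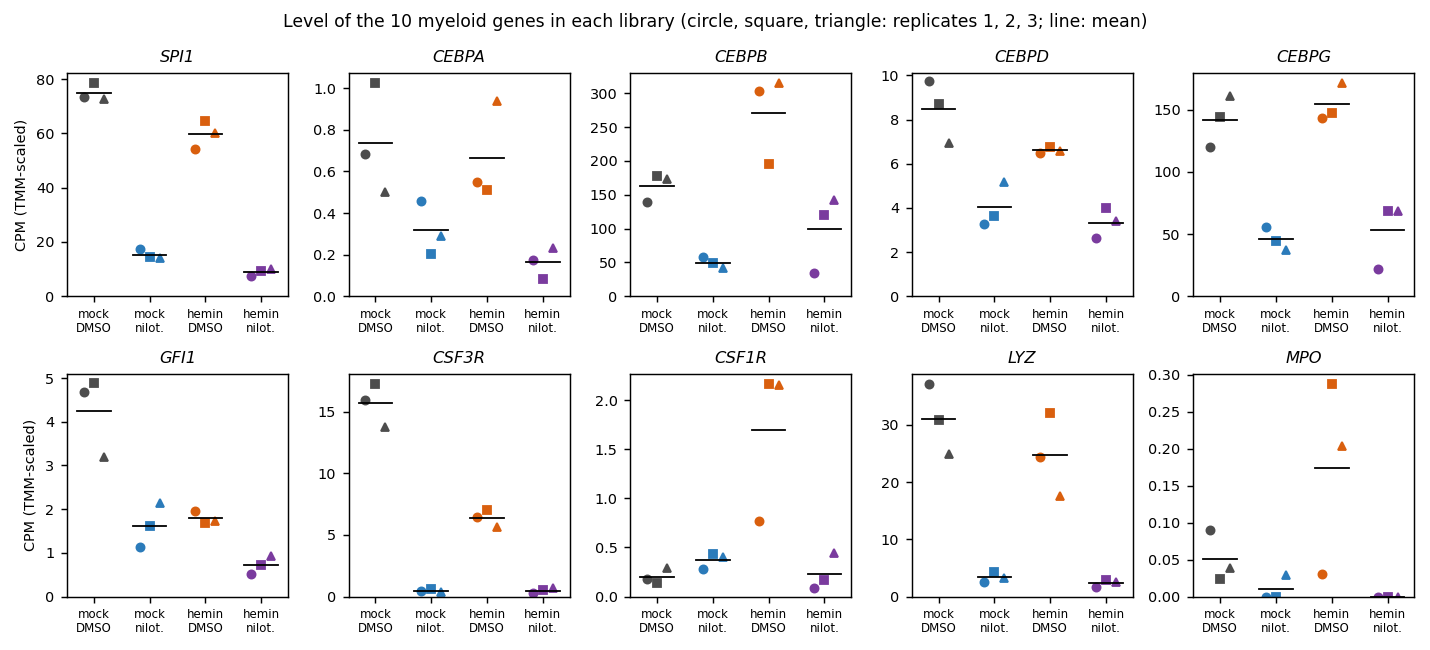
Level of each of the 10 genes in CPM (vertical axis, linear, from 0) in the 12 libraries of the 4 groups, with a circle, square or triangle for replicates 1, 2 and 3 and a line at the group mean. SPI1 and LYZ are low in both nilotinib groups, CSF1R is high in hemin DMSO alone, and hemin nilotinib replicate 1 lies well below the other replicates for CEBPB and CEBPG.

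SPI1 (ENSG00000066336, chromosome 11 from 47354860 to 47378576) encodes PU.1. Its level was 73.3, 78.6 and 72.7 CPM in the mock DMSO libraries, 54.4, 64.5 and 60.3 CPM in hemin DMSO, 17.2, 14.5 and 14.1 CPM in mock nilotinib and 7.61, 9.22 and 9.97 CPM in hemin nilotinib. The 4 groups did not overlap, and each nilotinib library lay below every DMSO library. Nilotinib lowered SPI1 by a log2 fold change of -2.74 with hemin (SE 0.14, edgeR adjusted p = 3.33e-10) and -2.29 without it (SE 0.14, edgeR adjusted p = 4.22e-09), a 6.68-fold and a 4.90-fold lower level. The difference between these effects was -0.45 and not past the threshold (SE 0.19, edgeR adjusted p = 0.0886), but it passed with DESeq2, at -0.501, and with upper-quartile factors, at -0.56. Hemin lowered SPI1 by -0.77 in nilotinib cells (SE 0.14, edgeR adjusted p = 0.00618), a call lost when the 6 libraries of that comparison were fitted alone, at -0.76. The hemin effect without nilotinib was smaller, -0.33 (SE 0.13, edgeR adjusted p = 0.0482), and was not past the threshold with DESeq2 or RLE factors (both -0.28), upper-quartile factors (-0.21), all genes with a count (-0.40), at least 10 counts in every library (-0.29), the FPKM fit with 0.1 added (-0.30) or the 6 libraries alone (-0.29). It was also lost without 1 library, at -0.25 without hemin DMSO replicate 1, -0.30 without mock DMSO replicate 2, -0.39 without mock DMSO replicate 3 and -0.32 without hemin DMSO replicate 3.

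GFI1 (ENSG00000162676, chromosome 1 from 92474762 to 92486876) encodes a zinc finger repressor that favors neutrophils over monocytes. It had 4.69, 4.89 and 3.19 CPM in mock DMSO, 1.14, 1.60 and 2.13 CPM in mock nilotinib, 1.96, 1.69 and 1.72 CPM in hemin DMSO and 0.517, 0.713 and 0.934 CPM in hemin nilotinib. The mock DMSO libraries were the highest and the hemin nilotinib libraries the lowest, while mock nilotinib and hemin DMSO overlapped. Nilotinib lowered GFI1 by -1.30 on the log2 scale with hemin (SE 0.32, edgeR adjusted p = 0.00201) and by -1.39 without it (SE 0.29, edgeR adjusted p = 0.0012). Hemin lowered it by -1.25 without nilotinib (SE 0.29, edgeR adjusted p = 0.00199) and by -1.15 with nilotinib (SE 0.32, edgeR adjusted p = 0.0431). The last call was lost with upper-quartile factors, both FPKM fits and the 6 libraries alone. It was also lost without mock nilotinib replicate 2 (-1.19) or 3 (-0.94) and without hemin nilotinib replicate 1 (-0.97) or 2 (-1.17).

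CEBPB (ENSG00000172216, chromosome 20 from 50190734 to 50192689) encodes a C/EBP protein used in macrophages and in granulocyte production under stress. Its level was 139, 177 and 173 CPM in mock DMSO, 304, 195 and 316 CPM in hemin DMSO, 58.4, 49.3 and 41.1 CPM in mock nilotinib and 33.9, 120.4 and 143 CPM in hemin nilotinib. Every nilotinib library was below every DMSO library of the same hemin state, but hemin nilotinib replicate 1 was far below replicates 2 and 3. The log2 fold change with nilotinib was -1.45 with hemin (SE 0.35, edgeR adjusted p = 0.00167) and -1.72 without it (SE 0.35, edgeR adjusted p = 0.000896). Hemin gave 0.997 with nilotinib (SE 0.35, edgeR adjusted p = 0.102) and 0.73 without it (SE 0.34, edgeR adjusted p = 0.0809), neither past the threshold. Both passed with all genes with at least 1 count (0.99 and 0.66), and the value without nilotinib passed in the 6 libraries alone (0.77). Without hemin nilotinib replicate 1 the nilotinib effect under hemin was -1.03 and still past the threshold, CEBPB rose with hemin in nilotinib cells by 1.40, and the difference between the nilotinib effects, 0.26 with all libraries, became 0.69 and past the threshold. Of the exon length of CEBPB, 11.8% lies opposite CEBPB-AS1, which had 1.40 to 2.97 CPM as group means. The strand setting of the counting is not given in the sources used here, so reads of such pairs cannot be told apart.

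CEBPG (ENSG00000153879, chromosome 19 from 33373330 to 33382686), a widely expressed C/EBP subunit that pairs with ATF4, had 119.8, 144 and 161 CPM in mock DMSO and 144, 147 and 172 CPM in hemin DMSO. With nilotinib it had 55.4, 44.4 and 37.3 CPM in mock cells and 22.2, 68.8 and 68.9 CPM in hemin cells. The nilotinib libraries again lay below the DMSO libraries, and replicate 1 of hemin nilotinib again below its group. CEBPG fell by 1.53 with hemin (SE 0.29, edgeR adjusted p = 0.000273) and by 1.63 without it (SE 0.30, edgeR adjusted p = 0.000317) on the log2 scale. The hemin effect on CEBPG was 0.12 without nilotinib and 0.22 with it, neither past the threshold. The sign of the former turned with no composition factors and with 1 library left out, and that of the latter with libraries left out. Without hemin nilotinib replicate 1 the latter was 0.59 and past the threshold, and the nilotinib effect under hemin was -1.15.

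CEBPD (ENSG00000221869), an inflammation-responsive C/EBP gene, ranged from 6.93 to 9.74 CPM in mock DMSO, 6.49 to 6.76 CPM in hemin DMSO, 3.27 to 5.16 CPM in mock nilotinib and 2.64 to 3.98 CPM in hemin nilotinib. The nilotinib libraries lay below the DMSO libraries, with a log2 fold change of -0.98 with hemin (SE 0.23, edgeR adjusted p = 0.00135) and -1.07 without it (SE 0.23, edgeR adjusted p = 0.00113). Hemin gave CEBPD a log2 fold change of -0.36 in DMSO cells and -0.27 in nilotinib cells, not past the threshold. With no composition factors the former was -0.60 and past it, and the latter was -0.075 without mock nilotinib replicate 3. CEBPA (ENSG00000245848, chromosome 19 from 33299934 to 33302564), needed for the granulocyte branch, had only 26 to 43 counts per library in mock DMSO, 7 to 18 in mock nilotinib, 16 to 37 in hemin DMSO and 3 to 10 in hemin nilotinib. Its libraries did not overlap between nilotinib and DMSO in either hemin state, but they rest on few counts. The log2 fold change of CEBPA was -2.01 with hemin (SE 0.51, edgeR adjusted p = 0.00255) and -1.19 without it (SE 0.46, edgeR adjusted p = 0.0474). The CEBPA value without hemin was not past the threshold with DESeq2 (-1.19), with upper-quartile (-1.08) or no composition factors (-1.21), with all genes with a count (-1.22), with a replicate block (-1.22), or without mock DMSO replicate 1 (-1.28) or 2 (-0.89) or mock nilotinib replicate 2 (-0.99) or 3 (-1.15). Of its exon length 43.4% lies opposite AC008738.3 and AC008738.5, both listed at 0 in all libraries. The hemin effect on CEBPA, -0.12 in DMSO cells and -0.94 in nilotinib cells, was not past the threshold. In the 3 replicate pairs of the nilotinib groups the CPM of CEBPA was lower with hemin each time, on 3 to 18 counts and with 10 in both libraries of the third pair, and with the replicate block the value was -0.94 (SE 0.56, edgeR adjusted p = 0.337) and not past the threshold.

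CSF3R and CSF1R encode the receptors of the granulocyte and macrophage colony-stimulating factors, and with nilotinib in mock cells CSF3R fell while CSF1R was not past the threshold. CSF1R had only 6 to 15 counts per library in mock DMSO, so a fall there could hardly be seen. Under hemin nilotinib lowered both genes. Their RefSeq promoter windows (build GRCh38.p14, around a single transcript start per gene, 5′ to 3′) are shown because of the contrast in mock cells, which is weak for that reason. The CSF3R window is chr1:36483265-36483564 and the CSF1R window chr5:150113316-150113615, both on the minus strand. Capitals mark matches to the C/EBP motif TTNCNNAA.
CSF3R: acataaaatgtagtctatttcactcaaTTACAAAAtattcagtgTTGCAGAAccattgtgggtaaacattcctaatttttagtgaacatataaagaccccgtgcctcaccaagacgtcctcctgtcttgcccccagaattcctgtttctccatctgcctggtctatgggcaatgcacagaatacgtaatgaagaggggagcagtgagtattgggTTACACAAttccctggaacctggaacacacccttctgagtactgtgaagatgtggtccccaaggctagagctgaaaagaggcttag
CSF1R: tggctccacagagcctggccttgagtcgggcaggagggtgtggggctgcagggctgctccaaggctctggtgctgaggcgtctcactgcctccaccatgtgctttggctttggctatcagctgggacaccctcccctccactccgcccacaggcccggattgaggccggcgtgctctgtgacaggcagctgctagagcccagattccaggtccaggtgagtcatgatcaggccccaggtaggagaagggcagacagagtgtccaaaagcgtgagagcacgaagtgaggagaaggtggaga
Both strands were searched for this motif, for the PU.1 motif GAGGAA and for the GATA motif GATAA, which occur in 36.8%, 27.9% and 22.7% of 35116 promoter windows of this length. CSF3R has 3 matches, all to the C/EBP motif, and CSF1R has 0 to any of these motifs. A match is a description of the letters and neither a site nor a cause, and no match says only that the letters are absent from the window. Other start sites of these genes were not searched, so the windows do not compare the promoters in use in these cells. RefSeq windows were found for 6 of the 10 genes. CEBPA, CEBPB, CEBPG and GFI1 have 0 matches, and SPI1, CEBPD, LYZ and MPO had no entry.

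CSF3R (ENSG00000119535, chromosome 1 from 36466043 to 36483278) had 16.0, 17.2 and 13.8 CPM in mock DMSO and 6.46, 7.05 and 5.63 CPM in hemin DMSO. With nilotinib it had 0.431, 0.612 and 0.346 CPM in mock cells and 0.259, 0.494 and 0.654 CPM in hemin cells, on 9 to 28 counts per library. Both nilotinib groups lay at the same low level, far under either DMSO group. Nilotinib lowered CSF3R by a log2 fold change of -5.07 without hemin (SE 0.30, edgeR adjusted p = 2.87e-09) and -3.73 with it (SE 0.29, edgeR adjusted p = 2.08e-08), which is 33.7-fold and 13.3-fold lower. The difference between these effects, 1.34, passed the threshold (SE 0.41, edgeR adjusted p = 0.0216), with a smaller fall under hemin. That call was lost without mock DMSO replicate 2 (1.27), mock nilotinib replicate 3 (1.20) or hemin nilotinib replicate 3 (1.05). Hemin lowered CSF3R by -1.30 in DMSO cells (SE 0.24, edgeR adjusted p = 0.000251), while in nilotinib cells the value was 0.043 (SE 0.33, edgeR adjusted p = 0.96), near the limit of detection.

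CSF1R (ENSG00000182578, chromosome 5 from 150053291 to 150113372) was scarce, with 10, 6 and 15 counts in the mock DMSO libraries, 11, 15 and 14 in mock nilotinib, 25, 68 and 85 in hemin DMSO and 3, 6 and 19 in hemin nilotinib. Only hemin DMSO stood clear of the other groups, with replicate 1 the lowest of its libraries at 0.765 CPM and the others at 2.17 and 2.15 CPM. Hemin raised CSF1R in DMSO cells by a log2 fold change of 3.03 (SE 0.53, edgeR adjusted p = 0.000181), and nilotinib lowered it under hemin by -2.82 (SE 0.54, edgeR adjusted p = 0.000258). Leaving out a library moved the latter as far as -3.71 (hemin nilotinib replicate 3) and -2.43 (replicate 1 of that group). In mock cells nilotinib gave 0.84, not past the threshold (SE 0.57, edgeR adjusted p = 0.249), and the libraries overlapped. The effects with and without hemin differed by -3.66 (SE 0.79, edgeR adjusted p = 0.00273), a call that held under all alternatives in which CSF1R could be tested, at -4.52 and -3.27 when the same 2 libraries were left out.

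**Figure D2:**
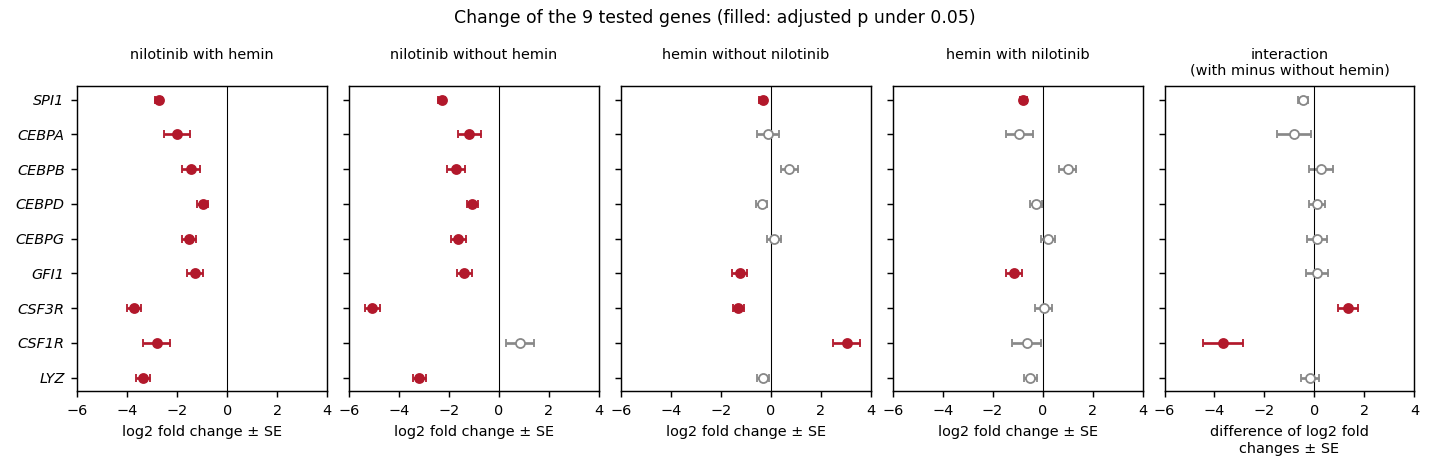
Log2 fold change (horizontal axis) with its SE for the 9 genes that could be tested, in each comparison, with filled points where the adjusted p was under 0.05. The nilotinib comparisons lie left of 0 for each gene except CSF1R without hemin, and CSF3R and CSF1R are the filled points of the interaction, the effect with hemin minus that without.

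LYZ (ENSG00000090382, chromosome 12 from 69348341 to 69354234) encodes lysozyme, the bacteriolytic enzyme of monocytes and granules. Its level was 37.2, 30.9 and 24.9 CPM in mock DMSO, 24.4, 32.1 and 17.6 CPM in hemin DMSO, 2.61, 4.23 and 3.31 CPM in mock nilotinib and 1.69, 2.88 and 2.59 CPM in hemin nilotinib. The DMSO groups overlapped each other, as did the nilotinib groups, and the lowest DMSO library was above the highest nilotinib library. LYZ was 10.3-fold lower with nilotinib under hemin, a log2 fold change of -3.37 (SE 0.27, edgeR adjusted p = 2.91e-08), and 9.18-fold lower without hemin, at -3.20 (SE 0.26, edgeR adjusted p = 9.58e-08). These effects differed by -0.17, not past the threshold (SE 0.35, edgeR adjusted p = 0.758). The hemin effect on LYZ was -0.33 without nilotinib and -0.49 with it, also not past the threshold. In the 3 replicate pairs of the nilotinib groups LYZ was lower with hemin each time, and with a replicate block the value was -0.49 (SE 0.24, edgeR adjusted p = 0.233), still not past the threshold. The value without nilotinib passed with no composition factors, at -0.59, and ranged from -0.557 to -0.117 with libraries left out. On the opposite strand AC020656.1, listed at 0 in all libraries, covers 34% of the exon length of LYZ.

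MPO (ENSG00000005381, chromosome 17 from 58269856 to 58280935), which encodes myeloperoxidase of the primary granule, was near 0 throughout. It had 5, 1 and 2 counts in mock DMSO, 0, 0 and 1 in mock nilotinib, 1, 9 and 8 in hemin DMSO and 0 in each hemin nilotinib library. It was over the low-count limit, 0.270 CPM before TMM scaling, in 0 libraries and was not tested. At this depth its differences were not detectable by the main test.

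Counted together, 9 of the 10 genes had enough counts for a test. CSF1R passed that filter on 8 libraries, 1 in mock DMSO, 3 in mock nilotinib, 3 in hemin DMSO and 1 in hemin nilotinib, and CEBPA on 8, none of them in hemin nilotinib, so counts and medians over the tested genes give no support of their own. Between hemin nilotinib and hemin DMSO, 9 of the 9 were lower at an adjusted p under 0.05, where 31.8% of the 20821 genes tested were lower, 32.4% higher and 64.2% changed in either direction. The libraries of those 9 lay apart, below hemin DMSO, as did those of 32.0% of all genes, with another 31.5% above. Between mock nilotinib and mock DMSO, 8 of the 9 were lower, with CSF1R not past the threshold, against 21.8% of all genes lower, 20.7% higher and 42.5% changed. Libraries lay apart for the same 8, all lower, where 31.1% of all genes had them apart and lower and 29.8% apart and higher. The median log2 fold change of the tested genes was -2.01 with hemin and -1.63 without it, beside 0.022 and 0.0039 over all genes.

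The hemin comparisons moved fewer of these genes. Between hemin DMSO and mock DMSO, CSF1R was higher and SPI1, CSF3R and GFI1 were lower, 4 of 9, where 53.6% of all genes changed, 25.7% higher and 27.8% lower. Libraries lay apart and higher for CEBPB and CSF1R and apart and lower for SPI1, CEBPD, CSF3R and GFI1, where 29.8% of all genes lay apart and higher and 32.9% apart and lower. Those shares are near the background and are not a result about these genes. Between hemin nilotinib and mock nilotinib, SPI1 and GFI1 were lower, 2 of 9, where 5.80% of all genes changed, 3.52% higher and 2.28% lower, and the libraries of these 2 alone lay apart, as did 11.7% of all genes higher and 11.6% lower. The interaction was past the threshold for CSF3R and CSF1R, 2 of 9, against 30.1% of all genes, 17.1% higher and 13.0% lower, again not a result about the genes as a group. The median of the tested genes was -0.33 for hemin in DMSO cells, -0.49 in nilotinib cells and 0.089 for the interaction, beside -0.047, 0.026 and 0.063 over all genes. The mock DMSO libraries serve as controls in both the nilotinib and the hemin comparison, so these values are not independent of each other.

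Among the members, the likeness of pattern was described by the Pearson correlation of log2 CPM over the 12 libraries, which share their 4 groups. SPI1, LYZ and CSF3R were close to each other, with 0.978 for SPI1 and LYZ, 0.966 for SPI1 and CSF3R and 0.978 for CSF3R and LYZ. CEBPB and CEBPG had 0.939, while CSF1R had no value above 0.533 with any other tested member. Of 9450 genes with a mean of at least 10 CPM, those with patterns close to SPI1 included ANXA3 (0.990) and MTHFD1L (0.990), and those close to LYZ included WAS (0.994) and ARHGEF6 (0.992). For CSF3R they were SORT1 (0.994), CELF2 and TMEM273, and for GFI1 DNASE2 (0.965), SMIM3 and ZNF467. CEBPB was most like CHAC1 (0.988), SLC7A5 and DDIT3, and CEBPG most like PSAT1 (0.984), TARS and MARS. The genes nearest to CEBPD were RILPL2 (0.974), TRIM6 and COL15A1, and to CSF1R DDAH2 (0.973), KPNA5 and KRT10. Near CEBPA were ARHGEF7 (0.922) and ZFP92 (0.908). DDIT3 shares 31.6% of its exon length with genes on the opposite strand, MARS among them.

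C/EBP subunits pair with other leucine zipper proteins, and some Tribbles proteins direct C/EBP alpha to degradation. Of 8 genes tested in the partner and Tribbles list, which also holds CEBPZ, 6 were lower and 0 higher with nilotinib under hemin. Without hemin 5 were lower and 0 higher. The medians were -1.49 with hemin and -1.09 without it. Under hemin, 31.8% of all genes were lower and 32.4% higher, at a median of 0.022, and 21.8% and 20.7% without hemin, with a median of 0.0039. The ATF5 call under hemin, at -1.09, was lost with DESeq2 (-1.14), no composition factors (-0.90) and the 6 libraries alone (-1.07). It was also lost without hemin DMSO replicate 1 or 3, and the value was -0.60 without hemin nilotinib replicate 1. Without hemin the TRIB1 call, at -0.53, was lost with upper-quartile factors (-0.42) and in the FPKM fit with 1 added (-0.33). That call was also lost without mock DMSO replicate 3 or mock nilotinib replicate 1 or 3. TRIB3, a Tribbles gene, had 379, 366 and 384 CPM in hemin DMSO and 31.7, 62.2 and 69.9 CPM in hemin nilotinib, and fell by 2.79 on the log2 scale. TRIB1 had 29.5, 37.8 and 35.3 CPM in hemin DMSO and 4.88, 5.65 and 4.46 CPM in hemin nilotinib, so that it fell by 2.78, and BATF3 fell by 4.21, with -4.92 when hemin nilotinib replicate 1 was left out. BATF3 was scarce, at a mean of 1.61 CPM over the 12 libraries, and could pass the filter on the DMSO libraries. Its fall thus adds no support to the counts of this list. TRIB1 was at 8.57, 7.55 and 8.34 CPM in mock DMSO, so hemin raised it in DMSO cells, by 2.07. ATF4, a stress-induced partner of CEBPG, had 138, 369 and 407 CPM in hemin nilotinib, with replicate 1 low as for CEBPB and CEBPG, and a log2 fold change of -1.08 against hemin DMSO that was -0.72 without replicate 1. Between hemin nilotinib and mock nilotinib the list had 0 higher and 1 lower, but 3 higher and 1 lower without hemin nilotinib replicate 1, when the genes changed over all also rose, from 1208 of 20821 to 2793 of 21850.

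**Figure D3:**
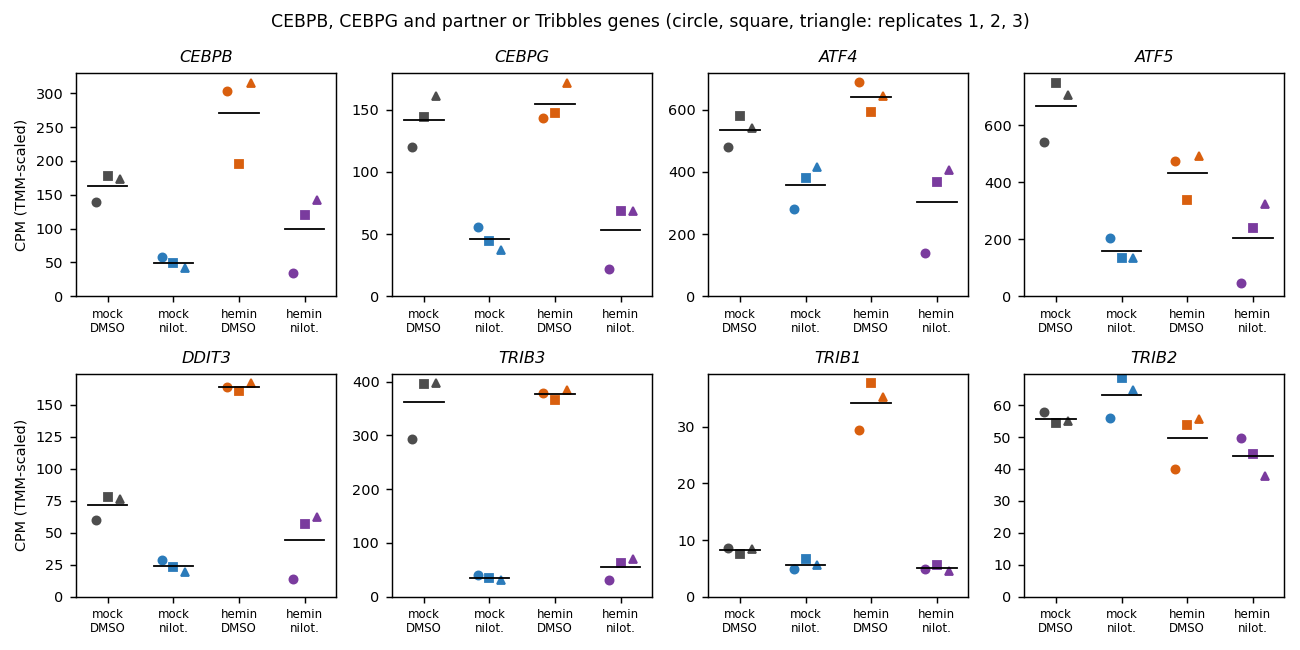
Level in CPM (vertical axis, linear, from 0) of CEBPB, CEBPG and 6 partner or Tribbles genes in the 12 libraries, with a circle, square or triangle for replicates 1, 2 and 3 and a line at the group mean. In hemin nilotinib the circle, replicate 1, is the lowest point for CEBPB, CEBPG, ATF4, ATF5, DDIT3 and TRIB3.

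Most of the erythroid factor genes listed were higher with nilotinib. Of 5 tested, 4 were higher and 1, GATA2, lower with nilotinib under hemin, with a median of 2.68, and 3 were higher and 1 lower without hemin, with a median of 1.37, where 32.4% and 20.7% of all genes were higher and the medians were 0.022 and 0.0039. KLF1, which drives adult red cell genes, had 23.6, 22.2 and 26.2 CPM in hemin DMSO and 750, 608 and 530 CPM in hemin nilotinib, a log2 fold change of 4.71 (SE 0.19, edgeR adjusted p = 3.23e-11). Without hemin it was 1.37, and hemin lowered KLF1 in DMSO cells by -3.57. TAL1 rose by 3.06 and ZFPM1, the GATA1 cofactor, by 2.68 under hemin and by 1.79 and 1.77 without it, and hemin in DMSO cells gave -1.46 and -0.84. GATA1 itself had 130, 186 and 158 CPM in hemin DMSO and 330, 306 and 314 CPM in hemin nilotinib, a rise of 1.005, while without hemin its value of 0.34 was not past the threshold. Among 5 genes of the GFI1 list, GFI1B, the erythroid paralog of GFI1, rose by 4.81 with nilotinib under hemin, from 9.0, 12 and 17.2 CPM to 407, 358 and 313 CPM, opposite in direction to GFI1. Without hemin GFI1B rose by 1.69, and hemin lowered it in DMSO cells by -3.46. Of the other 4, HDAC2 was lower, at -0.33, a call lost without hemin DMSO replicate 2 (-0.20) or hemin nilotinib replicate 2 (-0.36) or 3 (-0.21), with no composition factors (-0.15), with all genes with a count (-0.29) and in the 6 libraries alone (-0.31), and the corepressor genes KDM1A and HDAC1 were not past the threshold, at -0.052 and 0.29. That is 1 higher and 1 lower of 5, under the 64.2% of all genes that changed.

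**Figure D4:**
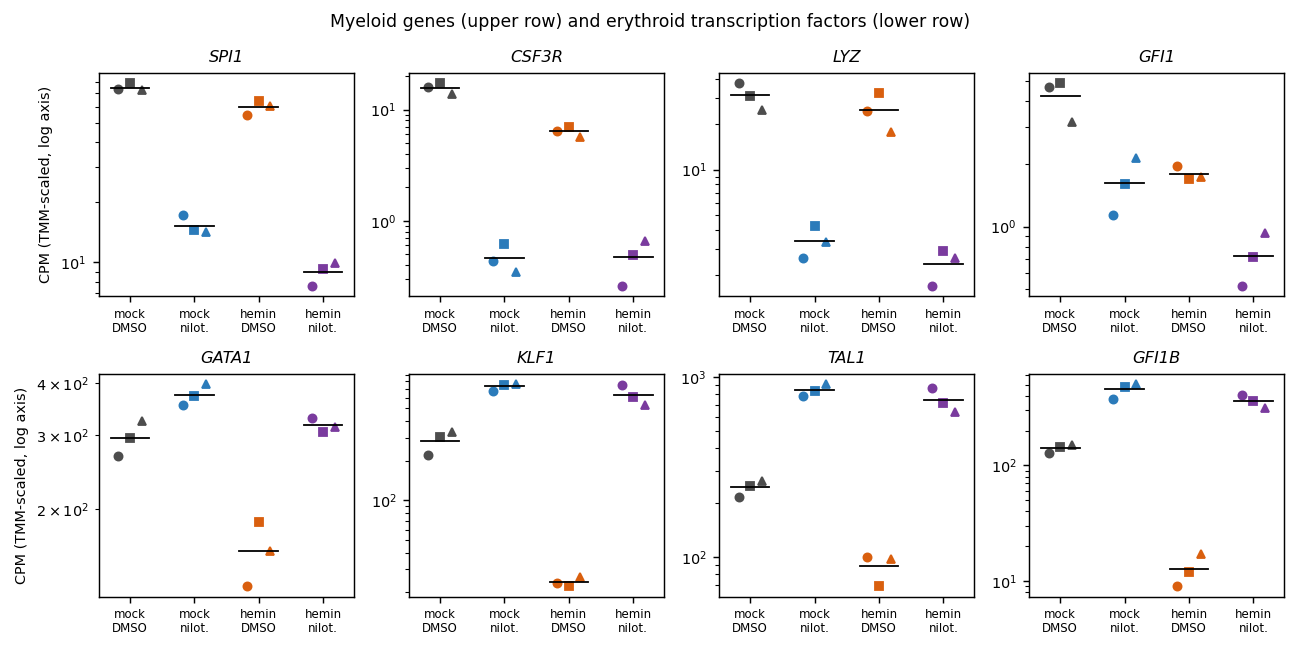
Level in CPM (vertical axis, logarithmic) of SPI1, CSF3R, LYZ and GFI1 in the upper panels and of GATA1, KLF1, TAL1 and GFI1B in the lower panels, in the 12 libraries of the 4 groups with a line at the group mean. In hemin DMSO the erythroid genes are at their lowest, and each hemin nilotinib library is above each hemin DMSO library there and below it in the upper panels.

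Other myeloid transcription factors were tested for 10 of 15 genes. With nilotinib under hemin 5 were lower and 1 higher, with a median of -1.02, and without hemin 6 were lower and 2 higher, with a median of -0.90, beside all-gene medians of 0.022 and 0.0039. The 6 of 10 changed under hemin is near the 64.2% of all genes, and 42.5% of all genes changed without hemin. The gene higher under hemin was IRF1, an interferon response factor, at 1.17, and it was also higher without hemin, at 1.06. EGR1, an immediate early gene of monocyte differentiation, had 22.7, 23.3 and 20.6 CPM in hemin DMSO and 1.29, 2.11 and 2.27 CPM in hemin nilotinib, and fell by 3.55. KLF4, another monocyte factor, rose with hemin in DMSO cells from 0.953, 0.858 and 0.884 CPM to 5.05, 7.81 and 6.67 CPM, and the nilotinib effects with and without hemin differed by -3.10 (SE 0.48, edgeR adjusted p = 0.000241). CBFB, the partner of RUNX1, fell by 2.38 with nilotinib under hemin and by 1.71 without it.

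The other granule genes differed widely in level, from SRGN at a mean of 286 CPM in hemin DMSO to genes with no counts. Of 11 primary granule genes 6 could be tested, and with nilotinib under hemin 2 were lower and 1 higher, a share under the 64.2% of all genes that changed. Without hemin nilotinib replicate 1, 2 were lower and 2 higher, where 13828 of 21850 genes changed, while CTSG and DEFA4 were listed at 0 in all libraries. MS4A3, a marker of granulocyte and monocyte progenitors, had 35.7, 29.1 and 19.5 CPM in mock DMSO and 1.5, 1.11 and 0.403 CPM in mock nilotinib, and fell by 4.79 without hemin and by 3.27 with it. SRGN, the granule proteoglycan serglycin, fell by 0.78 with nilotinib under hemin. AZU1 had 0.84 and was not past the threshold. SERPINB1 was the gene higher with nilotinib under hemin, at 0.45. That call was lost with DESeq2 or RLE factors (both 0.40), in both FPKM fits (0.41 and 0.43) and in the 6 libraries alone (0.47). It was also lost without hemin DMSO replicate 1 (0.33) or 3 (0.35) or hemin nilotinib replicate 2 (0.34). Of 8 secondary granule genes 3 could be tested, and with nilotinib under hemin 1, LTF (lactoferrin), was higher, at 4.58, from 1 to 5 counts per library to 53 to 141, and 2 were not past the threshold. That share is near the 32.4% of all genes that were higher. LTF could pass the filter on the nilotinib libraries where it was high, so this count gives no support of its own.

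Monocyte and macrophage genes were tested for 6 of 13, and with nilotinib under hemin 6 were lower, with a median of -2.50, while without hemin 4 were lower and 1 higher. Of all genes 31.8% and 21.8% were lower in these comparisons, with a median of 0.022 under hemin. Without hemin nilotinib replicate 1 the list had 5 lower under hemin, where 6884 of 21850 genes were. In the nilotinib libraries the 13 genes summed to 1.49 to 2.69 CPM, with 6 or 7 of them at 3 counts or fewer. Genes of this list could thus pass the filter on the DMSO libraries where they were high. Its counts and median give no support of their own. CD14, the coreceptor for lipopolysaccharide, had 0.270, 0.739 and 0.480 CPM in mock DMSO, 5.21, 11.3 and 11.7 CPM in hemin DMSO and 0.402, 0.329 and 0.911 CPM in hemin nilotinib. Like CSF1R it was high in hemin DMSO and low elsewhere, with a rise of 4.26 with hemin in DMSO cells and a difference between the nilotinib effects of -2.92 that was lost without mock nilotinib replicate 1, at -2.18. ITGAM, the CD11b integrin chain, fell by 3.20 with nilotinib under hemin and TYROBP, an adaptor of myeloid receptors, by 2.62. CSF1, the ligand of CSF1R, had 12.8, 16.5 and 15.6 CPM in mock DMSO, 42.4, 42.4 and 56.1 CPM in hemin DMSO and 13.6, 19.3 and 24.4 CPM in hemin nilotinib, a rise of 1.65 with hemin in DMSO cells and a log2 fold change of -1.30 with nilotinib under hemin. KIT, the stem cell factor receptor, fell by 2.81 with nilotinib under hemin. Of 6 growth factor and receptor genes tested there, 3 were lower and 0 higher, not above the 64.2% of all genes that changed. Of 4 phagocyte oxidase genes 3 were lower, where 31.8% of all genes were, CYBA among them at -0.69 (-0.46 without hemin DMSO replicate 2), and 1, CYBB, was higher at 1.07. Without hemin 1 of the 4 was lower and 1 higher, where 21.8% and 20.7% of all genes were. In hemin nilotinib replicate 1, 3 of the 5 oxidase genes listed had 3 counts or fewer. Genes of the oxidase list could thus pass the filter on the DMSO libraries, and its counts give no support of their own.

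Some markers of other cells differed with nilotinib under hemin. CD3D, a T cell gene, had a log2 fold change of -6.53, and -5.06 without hemin. The 6 lymphocyte genes listed summed to 8.80 to 25.8 CPM in the DMSO libraries and 1.58 to 4.48 CPM in the nilotinib libraries. Of 3 tested, 2 were lower with nilotinib in each hemin state, where 31.8% of all genes were lower with hemin and 21.8% without. Such genes could pass the filter on the DMSO libraries, so this count gives no support of its own. Of 4 fibroblast and epithelial genes 2 were lower, COL1A2 at -4.57 and EPCAM at -0.67, and of 5 eosinophil and basophil genes 2 were lower and 1, HDC, higher. Those list shares are near or under the 64.2% of all genes that changed, and without hemin nilotinib replicate 1 the fibroblast and epithelial list had 1 higher and 2 lower, where 13828 of 21850 genes changed. TFRC, the transferrin receptor gene, was higher at 1.83, but not past the threshold without hemin nilotinib replicate 1, at 0.43, or in the FPKM fits with 1 (1.24) and 0.1 added (1.25). The fibroblast and epithelial sum, led by EPCAM, was 76.3, 96.3 and 68.7 CPM in hemin DMSO and 44.2, 50.2 and 50.6 CPM in hemin nilotinib. The part of these markers in the myeloid results was not tested.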

How the data were processed

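RNA-seq of K562 cells was analysed in 12 libraries, 3 per group. The authors deposited raw counts of paired-end reads per gene, made by their sequencing service, and these counts entered every main test. FPKM were also deposited, with a single scaling factor per library, and served to compare levels between genes and in alternatives. The aligner, counting program and strand setting are not given in the sources used here, and the submitters' processing notes name GRCh38.p12 and DESeq2.

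Counts were fitted in R 4.3.3 with edgeR 4.0.16. The filter was filterByExpr with min.count 10 and min.total.count 15, library scaling used TMM, and a quasi-likelihood model held a mean for each of the 4 groups. Tests were two-sided, and a gene was called at a Benjamini-Hochberg adjusted p under 0.05 over the 20821 genes tested. With 3 against 3 libraries an exact permutation test of a single gene could not pass that threshold, so none was run. The procedure was tested on simulated data, and no value from that step is given here.

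The 10 genes and 13 further lists were chosen with earlier results of these data known. Genes were named from among the 3 of highest mean CPM and the 3 of largest change with nilotinib under hemin in a list (mean of at least 1 CPM) and from each member's 3 most similar genes, and other list genes were named after their values were seen. Alternatives changed the method (DESeq2 1.42.0, or limma-trend of limma 3.58.1 on log2 FPKM with 1 or 0.1 added), the scaling (RLE, upper-quartile, no composition factors), the filter (any gene with a count, or 10 counts in each library) and the design (only the 6 libraries compared, a block for replicate number, each library dropped in turn). Counts for the lists without hemin nilotinib replicate 1, and the named list genes under these alternatives, were added after seeing the data. Deviations of same-numbered libraries correlated above 0.1 in each pair only between mock nilotinib and hemin nilotinib (0.199 to 0.263). By that cutoff the numbers from the labels were taken to pair these groups only. Smaller positive values joined mock DMSO to mock nilotinib (0.087 to 0.099) and to hemin DMSO (0.085 to 0.104). Mock nilotinib and hemin DMSO had 0.079 to 0.117, so a weaker pairing of these groups is possible. The main fit held no block, and the block was run as an alternative. Annotation was read in Python 3.11.15 and figures drawn with matplotlib 3.10.9.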

Additional observations from a re-analysis of the deposited data

Results flagged for a closer look

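The effect of nilotinib differed between cells with and without hemin for CSF3R and CSF1R, by the test of that difference. For CSF3R the effect with hemin minus that without was 1.34 on the log2 scale, a smaller fall with hemin, in a gene whose nilotinib libraries held 9 to 28 counts. That call was lost without mock DMSO replicate 2 (1.27), mock nilotinib replicate 3 (1.20) or hemin nilotinib replicate 3 (1.05). For CSF1R it was -3.66, with 3 to 85 counts per library and the hemin DMSO libraries above all others, and it ranged from -4.52 to -3.27 with libraries left out.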

How the results depend on the processing

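Over the alternatives, 674 of 749 member values kept their direction and their side of the threshold, 32 lost a call, 10 gained a call and 33 changed sign, each of the last a value that was not past the threshold. The cause was not tested.

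The number of genes changed by hemin in nilotinib cells, 1208, was 1974 with DESeq2, 1987 with all genes with at least 1 count, 741 and 694 in the limma-trend fits of FPKM with 1 and with 0.1 added, 183 in the 6 libraries alone and 213 to 2793 with libraries left out, the highest without hemin nilotinib replicate 1. The members among them, 2, were 1 with upper-quartile factors, 1 in each FPKM fit, 0 in the 6 libraries alone, where 8 members could be tested, and 1 to 3 with libraries left out. With at least 10 counts in every library, 6 members could be tested, and 1 was changed by hemin in DMSO cells and 0 in the interaction. With libraries left out the interaction had 1 to 3 members. With all genes with at least 1 count, MPO joined, with 0 counts in every hemin nilotinib library, and 10 of 10 were lower with nilotinib under hemin, where 7493 of 40578 genes were lower.

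Values that changed sign were CEBPG under hemin in DMSO cells with no composition factors (-0.11), CSF3R under hemin in nilotinib cells in the FPKM fits (-0.000167 and -0.00582), and in the interaction CEBPD (-0.0251), CEBPG (-0.00566) and GFI1 (-0.0176) with upper-quartile factors, LYZ with no composition factors (0.0708) and CEBPG in the FPKM fits (-0.0874 and -0.102). With libraries left out, ranges across 0 were -0.0564 to 0.178 for CEBPG and -0.447 to 0.166 for CEBPA under hemin in DMSO cells, -0.295 to 0.319 for CSF3R and -0.0397 to 0.588 for CEBPG under hemin in nilotinib cells, and in the interaction -0.0567 to 0.687 for CEBPB, -0.0294 to 0.335 for CEBPD, -0.108 to 0.485 for CEBPG, -0.379 to 0.0607 for LYZ and -0.101 to 0.362 for GFI1.

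With the replicate number as a block, the genes changed by hemin in nilotinib cells were 1587 and the members 2, and CEBPG in the interaction turned to -0.00405. CEBPA without hemin lost its call (-1.22), and no other member call changed. In the FPKM fit with 1 added, values of scarce genes shrank, for nilotinib with hemin to -0.241 for CEBPA, -0.741 for CSF3R and -0.345 for CSF1R, all past the threshold.

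Without composition factors the median of all genes moved from 0.022 to 0.199 for nilotinib with hemin, from -0.047 to -0.287 for hemin without nilotinib and from 0.063 to 0.272 for the interaction, and the share of calls that were higher from 50.5% to 58.4% for nilotinib with hemin, from 48.0% to 33.9% for hemin without nilotinib, for the interaction from 56.7% to 73.3% and for hemin with nilotinib from 60.7% to 49.1%. Upper-quartile factors moved the median for nilotinib without hemin from 0.0039 to 0.113 and the share for the interaction to 46.3%. Depth limits CEBPA, CSF1R and MPO most.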

Other observations

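MYB and RUNX1, factors of early progenitors, were lowered by nilotinib and by hemin alike in cells that had not received the other agent. MYB had 302, 309 and 311 CPM in mock DMSO, 38.2, 36.9 and 33.9 CPM in mock nilotinib, 29.9, 57.2 and 48.9 CPM in hemin DMSO and 36.0, 41.9 and 35.2 CPM in hemin nilotinib. It was high in mock DMSO alone, and its log2 fold change was -3.08 with nilotinib in mock cells, -2.76 with hemin in DMSO cells and -0.27, not past the threshold, with nilotinib under hemin. The difference between the nilotinib effects was 2.81 for MYB (SE 0.25, edgeR adjusted p = 3.19e-06) and 1.64 for RUNX1 (SE 0.28, edgeR adjusted p = 0.000563). SRGN, whose product packs granule proteases, rose with hemin in DMSO cells by 1.29 and in nilotinib cells by 1.64, with 117 ± 7.77 CPM in mock DMSO, 286 ± 52.9 CPM in hemin DMSO, 167 ± 24.7 CPM in hemin nilotinib and 53.5 ± 2.46 CPM in mock nilotinib (SD over 3 libraries).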
